A study of Mus musculus with 20 samples.

Results

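The response of mouse macrophages to lipopolysaccharide (LPS) was measured by RNA sequencing after silencing of Brg1, with 3 LPS and 3 vehicle libraries out of the 20 libraries of the series. The 6 libraries were taken by their labels, Brg1 siRNA with LPS and Brg1 siRNA with vehicle, and every gene of the table was followed: 17787 in all, of which 12061 passed the filter for testing (10 normalized counts or more in 3 or more of the 20 libraries) and 5726 did not. The cells were bone marrow-derived macrophages of male C57BL/6J mice, grown from marrow for 7 days in medium with L929 cell supernatant, and all were transfected with 50 nM siRNA for 48 h. The LPS group received Brg1 siRNA and, for the last 6 h, 100 ng/ml LPS with 0.1% ethanol. Its vehicle group received Brg1 siRNA with 0.1% ethanol and 0.1% D-PBS. The same treatments with a control siRNA, 3 libraries each, were used to ask whether the response differed between siRNAs. A single siRNA product was used in each arm. Whether the replicates are different mice, different cultures or repeat preparations is not given in the labels. Each p-value is therefore set against the spread of these particular libraries, and that spread may be technical.

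LPS is a cell wall component of Gram-negative bacteria that macrophages bind through CD14, MD-2 and TLR4. The receptor signals through MyD88 to NF-κB and MAP kinases, and through TRIF to IRF3 and interferon-β, whose receptor then switches on interferon-stimulated genes through STAT factors. Brg1, the product of Smarca4, is an ATPase of BAF (SWI/SNF) complexes, which move nucleosomes, and it is known for its part in opening chromatin at inducible genes of macrophages, above all at those that respond late.

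Smarca4 (ENSMUSG00000032187, chromosome 9, 21616169 to 21704230 in GRCm38) checked the labels. It had 621, 559.5 and 600.1 normalized counts in LPS and 365, 358 and 340.2 in vehicle with Brg1 siRNA. With control siRNA the values were 2989.8, 2899 and 2751 in LPS and 1476, 1538 and 1626 in vehicle. Every Brg1 siRNA library thus lay below every control siRNA library of its treatment, and the log2 fold change of Brg1 siRNA over control siRNA was -2.28 (SE 0.085, limma adjusted p = 3.76e-12) in LPS and -2.12 (SE 0.085, limma adjusted p = 1.5e-11) in vehicle. The silenced cells kept a measurable amount of the transcript.

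The LPS libraries held 15.99, 15.43 and 17.64 M reads and the vehicle libraries 15.5, 15.68 and 14.45 M. After the authors' scaling, the totals of normalized counts were 19.23 to 20.05 M in LPS and 12.26 to 12.35 M in vehicle, so the scaling gave the LPS libraries the larger sums. Scaled to plain library totals instead, the median gene moved from a log2 fold change of -0.05 to -0.72. List counts are therefore given under both scalings. LPS replicate 2 carries a library number from a higher series than the other 5 libraries, as the table's headers show. On the first principal component, which held 57.3% of the variance, it stood at -63.7 beside -70.9 and -71.3 for the other LPS libraries, with vehicle libraries at 124.6 to 125.9. The share of mitochondrial transcripts was 1.149%, 0.856% and 1.189% in LPS and 1.528%, 1.549% and 1.691% in vehicle. The 10 macrophage markers checked summed to 476953 to 491143 normalized counts in LPS and 406924 to 416131 in vehicle. Markers of other cell types were low: 313 to 325 in LPS and 109 to 134 in vehicle for the 9 neutrophil markers in the table, with Ly6g at 0, 11.2 to 22.7 and 53.2 to 70.8 for 4 B cell markers, with Cd79a at 0, 91.0 to 207 and 121 to 177 for 5 T and NK cell markers, and 26.2 to 34.1 and 5.47 to 11.2 for 8 dendritic cell markers, with Cd209a at 0. For 3 mast cell and basophil markers the sums were 139 to 167 and 112 to 127, with Cpa3 and Gata2 at 0, and for 3 erythroid markers they were 0 to 2.27 and 1.71 to 2.39, with Slc4a1 at 0. The 6 fibroblast markers in the table summed to 867 to 1069.6 in LPS and 7.97 to 16.4 in vehicle, nearly all of it Pdgfrb, a growth factor receptor, which had 953, 854 and 1040.0 normalized counts in LPS and 2.39, 1.56 and 2.56 in vehicle, while Dcn was at 0. The part of these markers and of the mitochondrial share in the results was not tested.

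LPS changed most of the transcriptome of the silenced cells. Of 12061 genes, 4275 (35.4%) were called higher and 4511 (37.4%) lower in LPS than in vehicle (limma on log2 of normalized count + 1, Benjamini-Hochberg adjusted p under 0.05), 72.8% together. A change of at least 2-fold was called for 2155 genes higher (17.9%) and 2792 lower (23.1%), 41% together. The 3 LPS and 3 vehicle values did not overlap for 9505 genes (78.8%). Most of the very large changes were rises: 210 genes were called at least 32-fold higher and 51 at least 32-fold lower, and 23 were at least 1024-fold higher against 0 lower. With plain library totals 2219 genes were called higher (18.4%) and 7328 lower (60.8%). All of those 2219, and all of the 4511 called lower under the deposited scaling, were called in the same direction under both, and 621 genes (5.15%) were called higher under the deposited scaling and lower with plain totals. Every list count below stands beside these shares of all genes: 35.4% higher and 37.4% lower under the deposited scaling, and 18.4% and 60.8% with plain totals. Without LPS replicate 2, 4207 genes were called higher and 4323 lower. The authors' deposited table gives an adjusted p for 14702 genes and lists 4373 genes higher and 4510 lower at an adjusted p under 0.05, and 8558 of the 8786 genes called here are called there in the same direction and 0 in the opposite one.

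The levels of genes that rose and of genes that fell are given as a description with no test, since the fold change itself chose the genes. The genes were split into 4 equal bins by mean level over the 6 libraries, LPS included. Their median log2 fold change was -0.83 in the lowest bin, -0.47 and 0.10 in the middle ones and 0.56 in the highest. A rise in LPS itself raises this mean, so the bins are not independent of the fold change. The 2155 genes called at least 2-fold higher took 49.6%, 48.7% and 49.9% of the normalized counts in the LPS libraries and 15.4%, 15.2% and 15.2% in the vehicle libraries. The 2792 genes called at least 2-fold lower took 2.58%, 2.82% and 2.53% in LPS and 14.3% in each vehicle library. The 10 genes of the first set with the most counts, named after their values were seen (Il1b, Tnf, Acod1, Ptgs2, Clec4e, Ccl3, Cxcl2, Tnfaip2, Sqstm1 and Lcp1), made up 7.82% to 8.29% of all counts in LPS and 0.378% to 0.386% in vehicle.

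**Figure D1:**
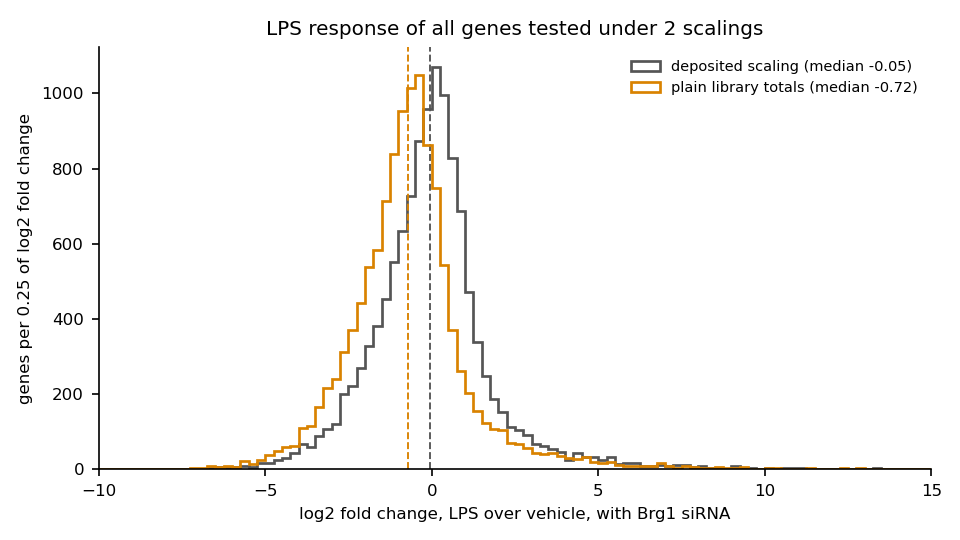
Histogram of the log2 fold change of LPS over vehicle with Brg1 siRNA over the 12061 genes tested (x axis, log2 scale; y axis, genes per bin), with the deposited scaling in grey and plain library totals in orange; dashed lines mark the medians. The whole distribution sits lower with plain totals, at a median of -0.72, than with the deposited scaling, at -0.05, and in both the right tail reaches further than the left.

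Promoters of the strongly induced genes were searched for the letters of 3 motifs on both strands of the 250 bases before the start site (RefSeq table, GRCm38.p6): the NF-κB motif κB as GGANTTTCC, the interferon-stimulated response element ISRE as AAANNGAAA and AP-1 as TGANTCA, where N is any base. The promoters of 3 neutrophil chemokine genes with a κB match and of 3 interferon-stimulated genes with ISRE matches are printed from 130 bases before the start site up to it, 5′ to 3′ on the gene's strand. They are shown as examples of promoters that hold a match, from genes among the rises described next. They do not show how often a match occurs. Capitals mark the motif match (for ISRE, all overlapping matches).

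Cxcl1, chr5:90891115-90891244, plus strand: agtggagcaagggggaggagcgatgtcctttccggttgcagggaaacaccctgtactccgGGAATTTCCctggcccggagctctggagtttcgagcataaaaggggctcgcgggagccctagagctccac
Cxcl2, chr5:90903769-90903898, plus strand: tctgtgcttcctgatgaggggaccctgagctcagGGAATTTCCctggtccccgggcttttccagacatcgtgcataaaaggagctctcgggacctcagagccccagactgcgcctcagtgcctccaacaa
Cxcl3, chr5:90785971-90786100, plus strand: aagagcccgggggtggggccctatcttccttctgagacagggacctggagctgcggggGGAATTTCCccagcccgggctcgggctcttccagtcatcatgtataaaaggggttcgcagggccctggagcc
Isg15, chr4:156200819-156200948, minus strand: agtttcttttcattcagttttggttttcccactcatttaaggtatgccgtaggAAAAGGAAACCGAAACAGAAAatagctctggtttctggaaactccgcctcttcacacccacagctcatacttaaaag
Ifit1, chr19:34640759-34640888, plus strand: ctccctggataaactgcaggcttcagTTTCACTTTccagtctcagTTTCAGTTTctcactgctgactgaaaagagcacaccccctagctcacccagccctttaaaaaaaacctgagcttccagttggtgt
Rsad2, chr12:26456453-26456582, minus strand: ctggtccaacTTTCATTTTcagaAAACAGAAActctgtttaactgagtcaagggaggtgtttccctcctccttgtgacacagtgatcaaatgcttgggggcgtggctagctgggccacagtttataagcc

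The κB match starts 70 bases before the start site in Cxcl1, 96 in Cxcl2 and 72 in Cxcl3, with the same letters in all 3. Isg15 holds 3 overlapping ISRE matches and Ifit1 and Rsad2 hold 2 separate ones each. Among all 27025 genes of the promoter table, 1.25% held a κB match, 10.8% an ISRE match and 7.82% an AP-1 match. Among the 9368 genes tested that have a promoter in the table, these shares were 1.45%, 8.91% and 5.6%. Of the 1634 genes called at least 2-fold higher that had a promoter in the table, 3.12% held κB, 10.9% ISRE and 7.59% AP-1. Of the 155 genes called at least 32-fold higher that had a promoter in the table, 12.3% held κB, 16.8% ISRE and 14.2% AP-1. Among the 2173 called at least 2-fold lower that had a promoter, the shares were 0.874% for κB, 8.51% for ISRE and 5.48% for AP-1. Of 28 interferon-stimulated effector genes with a promoter, 18 (64.3%) held an ISRE match, and of 14 chemokine genes with a promoter, 4 (28.6%) held κB. A match describes letters in a window and was not tied to binding.

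Sensing and signal transduction genes mostly rose, while the receptor itself fell. Of 22 genes of the TLR4 pathway, 16 were called higher and 3 lower, with a median log2 fold change of 1.00 against -0.05 over all genes, and with plain library totals 11 were higher and 5 lower. Cd14, the coreceptor that hands LPS to TLR4, had 67789, 76500.2 and 69032 normalized counts in LPS and 2328, 2850.1 and 2634 in vehicle, 27.3-fold higher (log2 fold change 4.77, SE 0.110, limma adjusted p = 2.47e-17). No LPS library came near a vehicle library. Irak2, a kinase-like adaptor that sustains MyD88 signalling, was 8.01-fold higher, and Ikbke, a kinase that phosphorylates IRF3, was 6.36-fold higher. Tlr4 itself had 1192, 1093 and 1338 normalized counts in LPS and 2451, 2470.1 and 2312 in vehicle and fell by 1.00 on the log2 scale. Tab1, an activator of the kinase TAK1, and Irak4, the kinase next to MyD88, also fell (log2 fold changes -1.81 and -0.61).

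All 11 genes of NF-κB subunits and inhibitors were called higher under both scalings (median log2 fold change 3.25). Nfkbiz, the inducible coactivator IκBζ that late genes need, rose most, at 13677, 13344 and 13879 normalized counts in LPS and 122, 140.0 and 126 in vehicle (105-fold). Nfkbia, the inhibitor IκBα, and Nfkb2, which encodes p100, were 24.1-fold and 19.1-fold higher. Of 19 feedback genes, 16 were higher and 2 lower (13 and 2 with plain totals). Socs3, which blocks cytokine receptor signalling, had 17914, 18866 and 18006 normalized counts in LPS and 7.97, 7.82 and 7.67 in vehicle, a 2335-fold rise. Cish, a related inhibitor, stood at 3254, 3500.4 and 2776 in LPS and 24.7, 1.56 and 5.12 in vehicle, where 1 of the vehicle libraries was above the other two. Dusp2, a MAP kinase phosphatase, was 112-fold higher. Atf3, a repressor of inflammatory genes, and Cyld, a deubiquitinase, fell by 0.59 and 0.76 on the log2 scale. Il10, the anti-inflammatory cytokine, changed little, with 94.8, 72.3 and 81.8 normalized counts in LPS and 59.8, 64.1 and 46.9 in vehicle. Its log2 fold change of 0.54 (limma adjusted p = 0.0168) was no longer called without LPS replicate 1 (0.44, adjusted p = 0.0749) or vehicle replicate 3 (0.41, adjusted p = 0.0894), and it was -0.13 with plain totals.

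Immediate early genes, most of them transcription factors and known for a fast and brief response, mostly rose at 6 h. Of 18 tested, 14 were higher and 3 lower (12 and 3 with plain totals). Nr4a3, an orphan nuclear receptor, had 261, 179 and 284 normalized counts in LPS and 1.59, 1.56 and 1.71 in vehicle. Ier3, a survival factor, was 30.0-fold higher. Fosl1, an AP-1 subunit, had 17.5, 36.1 and 39.8 in LPS and 1.59, 0 and 1.71 in vehicle. Egr1, a zinc finger factor, had 34.9, 32.4 and 26.1 in LPS and 4.78, 6.26 and 9.38 in vehicle, so both rose and stayed at low counts. Fos, the AP-1 subunit, had 29.9, 54.8 and 29.6 normalized counts in LPS and 1188, 1381 and 1293 in vehicle, with no overlap and a log2 fold change of -5.10 (SE 0.177). Jun, its partner, and Klf2, a factor that restrains inflammatory genes, fell too, with log2 fold changes of -2.41 and -2.75.

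Cytokine genes had the highest median change of the 29 lists. All 21 tested were called higher, 20 with plain library totals, with a median log2 fold change of 7.24. Il1b (chromosome 2, 129364570 to 129371139), an inflammasome-processed pyrogen, had 230576, 200708 and 243748 normalized counts in LPS and 13.6, 23.5 and 13.6 in vehicle, 13326-fold higher. Il12b (chromosome 11, 44400063 to 44414033), which encodes the p40 chain of IL-12 and IL-23, had 29508, 25683 and 33583 in LPS and 0.797, 0 and 2.56 in vehicle. Il6, the acute phase cytokine, had 9108, 7337 and 10314 in LPS and no read in any vehicle library, at least 11078-fold higher when 3 reads are set as the floor of the vehicle group. Vehicle levels of Il12b and Il6 were thus at or near 0, and the groups lay far apart. Tnf had 203236, 195944 and 212568 normalized counts in LPS and was already present in vehicle, at 616, 630.2 and 642, 324-fold higher. Il1a was 12408-fold higher, and Csf2, which encodes GM-CSF, was at least 4021-fold higher. Ifnb1, which encodes interferon-β, had 51.1, 44.9 and 42.1 in LPS and none in vehicle (at least 56.7-fold). The smallest rise of the 21 was that of Il10, described with the feedback genes.

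Of 22 chemokine genes, 20 were higher and 1 lower (median log2 fold change 5.12; 19 and 2 with plain totals). The 3 neutrophil chemokines whose promoters are printed above rose together. Cxcl3 had 17076, 15409 and 19451 normalized counts in LPS and 1.59, 0 and 0.853 in vehicle, where 3 reads in all give a ratio of 21479 with a 95% counting interval of 7349 to 104159. Cxcl1 had 32333, 29929 and 35837 in LPS and 3.99, 9.38 and 5.97 in vehicle. Cxcl2 had 125988, 125004 and 134317 in LPS and 35.9, 33.6 and 24.7 in vehicle. Each of the 3 was thus low in vehicle and far above in LPS. Cxcl10, an interferon-induced T cell attractant, was 537-fold higher, Ccl5 147-fold and Ccl22 1220.0-fold. Ccl17, a ligand of CCR4 like Ccl22, had 238, 208 and 248 in LPS and no read in vehicle. Cxcl14 was the single gene called lower, with 54.9, 66.0 and 62.5 normalized counts in LPS and 166, 178 and 171 in vehicle.

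Receptors went both ways, with 15 of 27 called higher and 5 lower under the deposited scaling, against 35.4% and 37.4% of all genes. With plain totals 11 were higher and 14 lower, against 18.4% and 60.8% of all genes. Formyl peptide receptors, which detect bacterial peptides, rose: Fpr1 had 733, 740.2 and 738 normalized counts in LPS and 3.19, 2.35 and 2.56 in vehicle, and Fpr2 was 628-fold higher. Fpr2 shares 43% of its 31-base words with other genes of the annotation, so its counts could be split with a relative. Tnfrsf1b, the second TNF receptor, was 7.50-fold higher. Cxcr4, the receptor that holds cells in the marrow, fell to 54.9, 103 and 56.8 in LPS, against 2129.5, 2309 and 2266 in vehicle. Cx3cr1, the fractalkine receptor, fell by 4.27 on the log2 scale, and Il6ra, the receptor of IL-6, to 46.1, 36.1 and 34.1 in LPS against 621, 628 and 643 in vehicle.

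**Figure D2:**
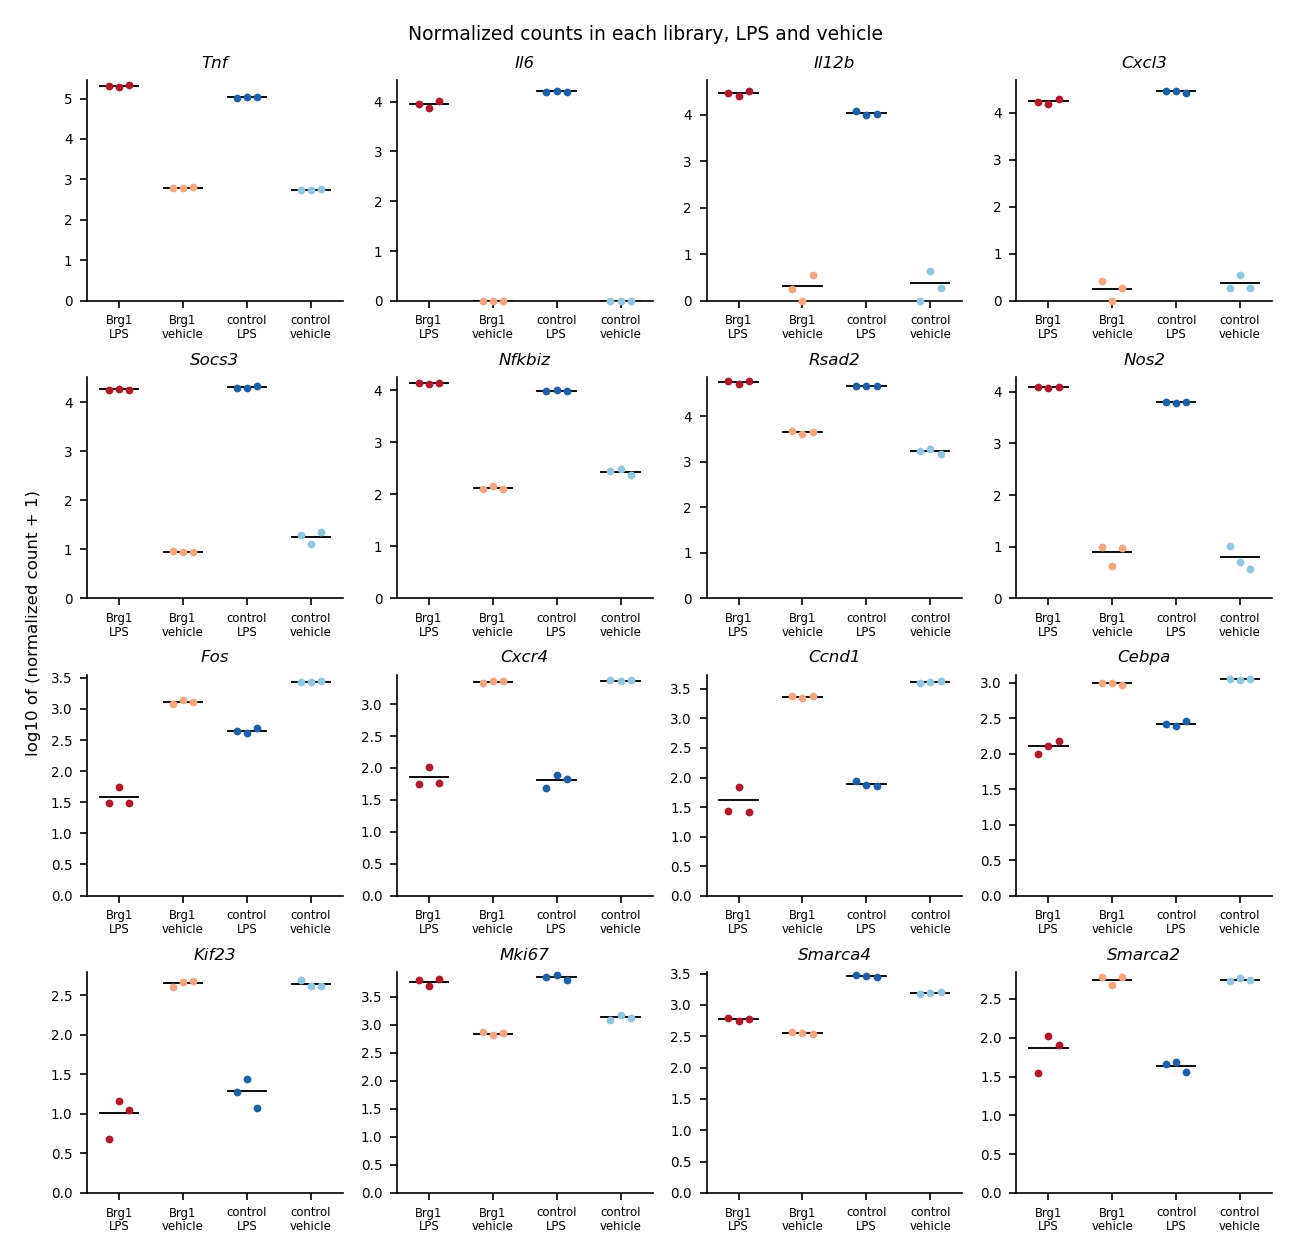
Normalized counts of 16 genes in each library, as log10 of the count + 1 (y axis, log scale), with LPS left of vehicle for Brg1 siRNA (reds) and then for control siRNA (blues); points are libraries and bars the mean of 3. Tnf, Il6, Il12b, Cxcl3, Socs3, Nfkbiz, Rsad2, Nos2 and Mki67 are higher in LPS, and Fos, Cxcr4, Ccnd1, Cebpa, Kif23 and Smarca2 lower, with no overlap between LPS and vehicle within either siRNA; Smarca4 is lower in all Brg1 siRNA libraries.

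Interferon-stimulated genes mostly rose, and many were already well expressed in vehicle. Of 37 interferon-stimulated effectors, 32 were called higher and 0 lower (26 and 4 with plain totals), with a median log2 fold change of 1.54. Rsad2, which encodes the antiviral enzyme viperin, had 58762, 50488 and 60029.7 normalized counts in LPS and 4666, 4161 and 4505 in vehicle. Oasl1, an antiviral regulator, was 18.7-fold higher. Isg15, a ubiquitin-like modifier, and Ifit1, which binds viral RNA, were named after their values were seen, for the promoters above. Isg15 had 14466, 13832 and 14008 in LPS and 1271, 1284 and 1313 in vehicle, and Ifit1 30479, 27675 and 30900.3 in LPS and 2776, 2717 and 2738 in vehicle. Ifi205, a DNA-binding family member that shares 22.1% of its words with other genes, rose most in the list (202-fold). Of 12 GTPases that attack vacuoles, 11 were higher and 0 lower (10 and 1 with plain totals), led by Gbp2 with 38147, 32166 and 37128 in LPS and 1193, 1052 and 1017 in vehicle. The upstream factors moved less, with 10 of 15 higher and 2 lower (5 and 5 with plain totals). Irf1 was 17.0-fold higher and Stat5a 11.6-fold. Irf7, the interferon amplifier, had 10572, 10789 and 10156 normalized counts in LPS and 9322, 9031 and 8870.0 in vehicle (log2 fold change 0.21, limma adjusted p = 0.0838). Irf7 did not pass the test, and was lower with plain totals (-0.47). Irf8 and Stat6, the factor downstream of IL-4, fell, with log2 fold changes of -1.26 and -0.95.

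Enzymes that make inflammatory mediators were among the strongest responders. Ptgs2, which encodes the inducible cyclooxygenase COX-2, had 194072, 168850.2 and 206869 normalized counts in LPS and 8.77, 10.2 and 9.38 in vehicle. Its log2 fold change of 14.15 (SE 0.138, limma adjusted p = 1.54e-22) was the largest of the 12 largest rises. Nos2, the inducible nitric oxide synthase, had 12507, 12129 and 12732 in LPS and 8.77, 3.13 and 8.53 in vehicle, and Acod1, which makes itaconate, was 645-fold higher. Of 17 enzymes in this list, 10 were higher and 5 lower (10 and 7 with plain totals). Among the falls were the constitutive cyclooxygenase Ptgs1 (11.2, 9.97 and 3.41 in LPS and 35.9, 40.7 and 29.8 in vehicle), the PGD2 synthase Hpgds and the prostaglandin-degrading Hpgd, at log2 fold changes of -2.11, -1.63 and -3.94. Of 12 inflammasome genes, 9 rose and 3 fell under both scalings. Nlrp3 had 27494, 27316 and 26804 normalized counts in LPS and 515, 401 and 411 in vehicle, and Mefv, which encodes pyrin, was 41.4-fold higher. Another sensor, Nlrp1b, had 23.7, 23.7 and 17.0 in LPS and 523, 473 and 503 in vehicle, and Pycard, the adaptor ASC, fell by 1.20 on the log2 scale.

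The metabolic lists had small median changes, and their counts depended on the scaling, as did those of all genes. Under the deposited scaling 35.4% of all genes were higher and 37.4% lower, and with plain totals 18.4% and 60.8%. Of 22 glycolysis genes, 13 were higher and 4 lower under the deposited scaling. With plain totals 5 were higher and 14 lower, near the shares of all genes. Slc2a1, the glucose transporter GLUT1, had 2166, 2361 and 2125 normalized counts in LPS and 299, 324 and 305 in vehicle, and Hif1a, the hypoxia factor, was 4.54-fold higher. Hk2 and Pfkl, which catalyse early steps of glycolysis, were 2.12-fold and 2.31-fold higher, while Gpi1, the isomerase between them, fell by 0.58 on the log2 scale. Of 19 tricarboxylic acid cycle genes, 6 were called higher and 8 lower, near the shares of all genes, and 2 and 16 with plain totals. Citrate synthase, Cs, had 5028, 5061 and 5401 in LPS and 2488, 2591 and 2578 in vehicle. Both NADP-dependent isocitrate dehydrogenases fell, Idh1 to 898, 1042 and 1091 in LPS against 2983, 2985 and 3039.7 in vehicle, and Idh2 by 1.24 on the log2 scale. Of 22 nuclear oxidative phosphorylation genes, 12 rose and 2 fell, but 1 and 14 did with plain totals.

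Cholesterol synthesis genes rose in their majority, 17 higher and 3 lower of 24 (14 and 7 with plain totals). Idi1, an isomerase of the route, had 2489.8, 2016 and 2765 normalized counts in LPS and 526, 502 and 526 in vehicle, 4.68-fold higher, and Dhcr7, which completes the pathway, fell by 2.63 on the log2 scale. Of 16 genes in the list of the sterol receptor LXR, its targets and cholesterol efflux, 5 were higher and 6 lower (3 and 10 with plain totals). Under the deposited scaling these shares lie near the 35.4% and 37.4% of all genes. Abcg1, an efflux pump, had 2227, 2171 and 1807 in LPS and 5366, 5420.3 and 5291 in vehicle, and Scd2, a fatty acid desaturase, fell by 3.31 on the same scale. Abca1, the other main efflux pump, was 1.63-fold higher, but not called with plain totals (log2 fold change 0.03, limma adjusted p = 0.859). Nr1h3, which encodes LXRα, and Ch25h, which makes 25-hydroxycholesterol, rose 2.92-fold and 14.1-fold.

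Cell cycle genes fell. Of 40, 35 were called lower and 2 higher (37 and 2 with plain totals), with a median log2 fold change of -2.11 against -0.05 over all genes, where 37.4% were called lower. Ccnd1, the cyclin that growth factors induce in G1, averaged 39.9 ± 24.8 normalized counts in LPS and 2351 ± 106 in vehicle (SD, n = 3 each). Replicate 2, at 68.5, was the highest LPS library and still far below every vehicle library. Kif23, a motor of cell division, had 3.74, 13.7 and 10.2 in LPS and 407, 459 and 477 in vehicle. Top2a, the topoisomerase of dividing cells, named after its values were seen, had 224, 292 and 259 in LPS and 733, 697 and 597 in vehicle. The list's pair of rises were Ccne1, a cyclin of the G1 to S step, at 1267, 1009 and 1379 in LPS and 68.6, 74.3 and 87.8 in vehicle, and Mki67, the gene of the proliferation marker Ki-67, at 6106, 4902 and 6528 in LPS and 722, 652 and 701 in vehicle. Ccne1 and its close relative Ccne2 went in opposite directions (log2 fold changes 3.96 and -4.07). In these bulk samples, fewer cells of a kind and less RNA per cell cannot be told apart.

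Of 29 genes of macrophage identity, 9 were higher and 14 lower, against 35.4% and 37.4% of all genes, and 7 and 19 with plain totals, against 18.4% and 60.8%, so the list stayed near the background. Cebpa, a myeloid factor, had 98.5, 129.6 and 151 normalized counts in LPS and 1005, 1006 and 946 in vehicle and fell by 2.97 on the log2 scale. Among surface receptors, the scavenger receptor Marco had 7312, 6745 and 7263 in LPS and 42.3, 39.1 and 46.9 in vehicle, and the inhibitory antibody receptor Fcgr2b was 38.5-fold higher. Csf1r, the receptor that keeps macrophages alive, had 22776, 26041 and 22819 in LPS and 24534, 25074 and 24660.1 in vehicle and was not called (log2 fold change -0.05, limma adjusted p = 0.45). Without the higher library numbers it was called lower (-0.12, limma adjusted p = 0.0197), and so it was with plain totals (-0.74). Of 28 lysosomal genes, 21 fell and 5 rose (25 and 2 with plain totals). Lipa, the acid lipase, had 14201, 15385 and 14134 normalized counts in LPS and 39236, 38283 and 37683 in vehicle, and Tfeb, the factor that drives lysosomal genes, had 86.0, 97.2 and 70.5 in LPS and 460.0, 548 and 466 in vehicle. Ctsc, a protease that activates granule enzymes, went against the list at 7.95-fold higher.

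Most antigen presentation genes rose: 11 of 14 in the class II and costimulation list and 15 of 16 in the class I list were higher, and 0 in either list were lower. With plain totals 9 of the class II list were higher and 0 lower, and 10 of the class I list higher and 4 lower. Cd40, the receptor of T cell help, had 39973, 38519.9 and 38951 normalized counts in LPS and 108, 99.3 and 126 in vehicle, 352-fold higher. Cd274, which encodes the inhibitory ligand PD-L1, was 19.8-fold higher and Icosl, a costimulatory ligand, 18.8-fold. Genes known from alternative activation by IL-4 were mostly higher, 12 higher and 3 lower of 16 (9 and 4 with plain totals). The falls were Mrc1, the mannose receptor (1203, 1060.5 and 1149 in LPS and 2787, 2439 and 2612 in vehicle), Pparg, a lipid-sensing nuclear receptor (82.3, 94.7 and 101 in LPS and 929.6, 1088 and 1009.5 in vehicle), and the lectin Clec10a (log2 fold change -2.37), while the chemokines Ccl17 and Ccl22 led the rises.

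Of 22 matrix genes, 14 rose and 7 fell (13 and 8 with plain totals). The aggrecanase Adamts4 had 1758, 1689.8 and 1767 normalized counts in LPS and no read in vehicle (at least 2149.7-fold), as did Serpinb2, the inhibitor PAI-2, at 2108, 1856 and 2437 in LPS (at least 2649-fold). Mmp14, a membrane collagenase, was 298-fold higher, and Adam8, a sheddase, had 6877, 7943 and 6311 in LPS and 22565, 22899 and 23501 in vehicle. Of 21 acute phase and metal genes, 15 were higher and 4 lower (11 and 6 with plain totals). Saa3, an acute phase apolipoprotein, had 32065, 32176 and 34498 in LPS and 100.5, 109 and 125 in vehicle, and the iron-binding Lcn2 and the ferroxidase Cp were 230.3-fold and 197-fold higher. Slc40a1, the iron exporter ferroportin, fell to 622, 648 and 639.9 in LPS against 5851, 5140.3 and 5239 in vehicle. The metallothioneins Mt1 and Mt2, which bind zinc, went apart: Mt2 had 169.6, 182 and 160.3 in LPS and 50.2, 46.9 and 50.3 in vehicle, and Mt1 had 305, 324 and 311 in LPS and 412, 421 and 429.7 in vehicle. The fall of Mt1 (log2 fold change -0.42, limma adjusted p = 0.0351) was not called when any 1 of the 6 libraries was left out (log2 fold changes -0.45 to -0.40, adjusted p 0.0534 to 0.08).

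Targets of NRF2, the antioxidant factor, rose in 15 cases of 17 and fell in 0, and in 11 and 4 with plain totals (1 or 2 fell in some other settings), with Slc7a11, the cystine importer, at 23280.0, 21644 and 25822 normalized counts in LPS and 250.3, 219 and 246 in vehicle and Gsr, glutathione reductase, 7.03-fold higher. Of 21 unfolded protein response and ATF4 targets, 10 were higher and 8 lower, against 35.4% and 37.4% of all genes. With plain totals 7 were higher and 12 lower, against 18.4% and 60.8%. Ppp1r15a, which restarts translation after stress, had 18152, 18265 and 17572 in LPS and 358, 381 and 362 in vehicle, and the sensor Atf6 fell by 1.19 on the log2 scale. Of 23 apoptosis and p53 genes, 16 rose and 4 fell (13 and 7 with plain totals). The survival genes Bcl2a1b and Bcl2a1d were 71.8-fold and 196-fold higher, while Bcl2 had 38.7, 48.6 and 44.3 in LPS and 167, 127 and 160.3 in vehicle. Bcl2a1b and Bcl2a1d share 88.8% and 89.1% of their words with other genes, so their counts may be divided among them.

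Of 24 BAF subunit genes, 15 were higher and 6 lower under the deposited scaling, against 35.4% and 37.4% of all genes. Their median log2 fold change was 0.59, against -0.05 over all genes. With plain totals 4 were higher and 9 lower, against 18.4% and 60.8% of all genes. Smarca4 rose 1.67-fold (log2 fold change 0.74, SE 0.0849, limma adjusted p = 3.28e-07), but not with plain totals (0.06, limma adjusted p = 0.528). Smarca2, the gene of the alternative ATPase Brm, had 33.7, 105 and 80.7 normalized counts in LPS and 607, 471 and 601 in vehicle, a fall by 3.06 on the log2 scale. The LPS and vehicle libraries did not overlap. Arid1a and Arid1b, subunits that exclude each other, moved in opposite directions, with 3177, 3008 and 3347 in LPS and 1378, 1303 and 1346 in vehicle for Arid1a and 112, 97.2 and 88.7 in LPS and 234, 281 and 378 in vehicle for Arid1b.

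**Figure D3:**
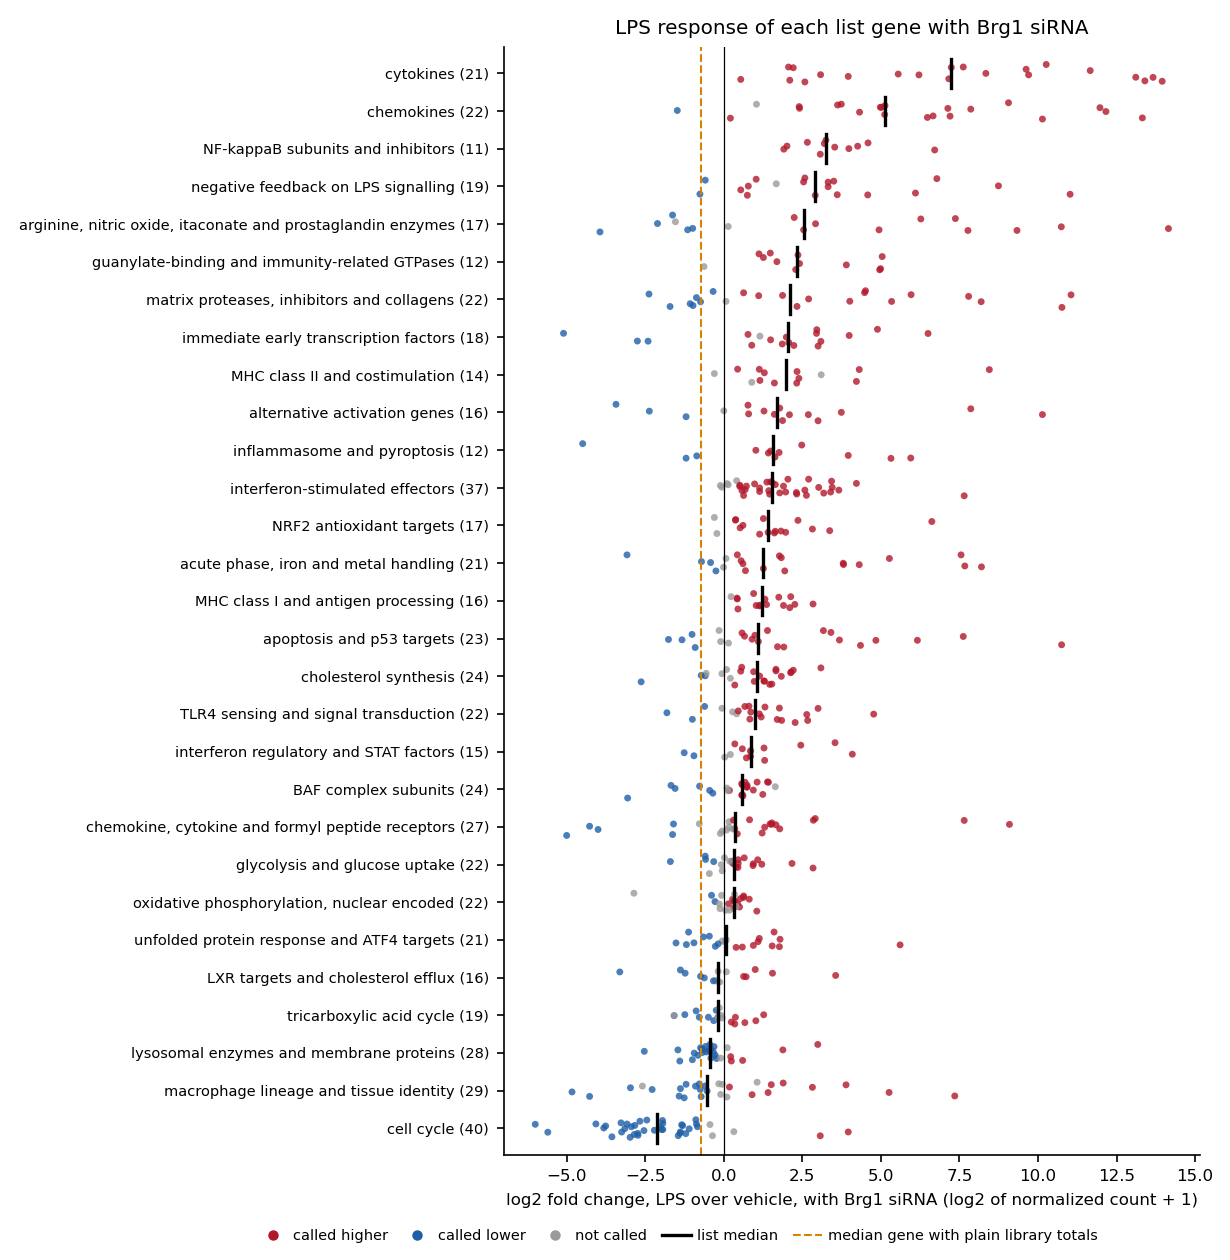
Log2 fold change of LPS over vehicle with Brg1 siRNA (x axis, log2 of normalized count + 1) for every tested gene of 29 lists (rows, with the number of genes tested); red points were called higher, blue lower and grey not called, black bars are list medians and the dashed line is the median of all genes with plain library totals. Cytokines have the highest median, 7.24, and cell cycle genes the lowest, -2.11.

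The 12 largest rises among genes with non-overlapping values were Ptgs2, Il12b, Il1b, Il1a, Cxcl3, Il6, Shisa3, Edn1, Cxcl1, Cxcl2, Csf2 and Serpinb2, with log2 fold changes of 14.15 to 11.05 that depend on the added count where vehicle was at or near 0. Other than the mediators above, they include Shisa3, a membrane protein of the endoplasmic reticulum, with 7276, 5756 and 7784 normalized counts in LPS and no read in vehicle, and Edn1, the vasoconstrictor endothelin-1, with 7865, 7417 and 8799 in LPS and 0, 0 and 0.853 in vehicle, a single read in all (ratio 29852, 95% counting interval 5357 to 1179141). The 12 largest falls were Klc4, Mknk2, Zfp395, Get1, Cnr2, Rfc1, Sox4, Arhgap19, Abcd2, Ccnd1, Kif20b and Kifc3. Klc4, a kinesin light chain, was listed at 0 in all LPS libraries and had 593, 532 and 749 in vehicle, and Mknk2, a kinase downstream of ERK and p38, was listed at 0 against 403, 357 and 484 in vehicle. Cnr2, the cannabinoid receptor CB2, had 6.23, 13.7 and 4.55 in LPS and 806, 848 and 753 in vehicle, and Abcd2, a peroxisomal transporter, had 2.49, 12.5 and 1.14 in LPS and 372, 339 and 304 in vehicle. In both, every LPS library lay far below every vehicle library. Get1 and Rfc1 were listed at 0 in LPS replicates 1 and 3 and at 41.1 and 109.7 in replicate 2. A value of exactly 0 can be a failed estimate of a transcript quantifier rather than absence, and with DESeq2 on the reads Rfc1 was not called (adjusted p = 0.0608).

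Whether this response depended on the siRNA was asked with the test of the difference itself, the LPS response with Brg1 siRNA minus that with control siRNA. With control siRNA 4341 genes (36%) were called higher in LPS and 4464 (37%) lower, 73% together. The same direction was called with both siRNAs for 7653 genes, 87.1% of the calls with Brg1 siRNA and 86.9% of those with control siRNA, and opposite directions for 70. Across the 12061 genes the log2 fold changes correlated with r = 0.918, a description over genes that are not independent replicates. The difference was called for 1380 genes (11.4%), 771 (6.39%) more positive with Brg1 siRNA and 609 (5.05%) more negative. All 70 genes with opposite directions were among the 1380. At 2-fold or more the difference was called for 408 genes (3.38%), 212 (1.76%) positive and 196 (1.63%) negative. Of the 771, 464 were called higher, 219 lower and 88 not called in the LPS response with Brg1 siRNA. Of the 609, 236 were higher, 288 lower and 85 not called.

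A difference in response can sit in the stimulated or in the resting cells. Among the 771 positive differences, the effect of Brg1 siRNA over control siRNA was called in LPS and not in vehicle for 349 genes, in vehicle and not in LPS for 154, in both for 247 and in neither for 21. Among the 609 negative ones these counts were 359, 121, 121 and 8. These counts compare calls and were not tested against each other.

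**Figure D4:**
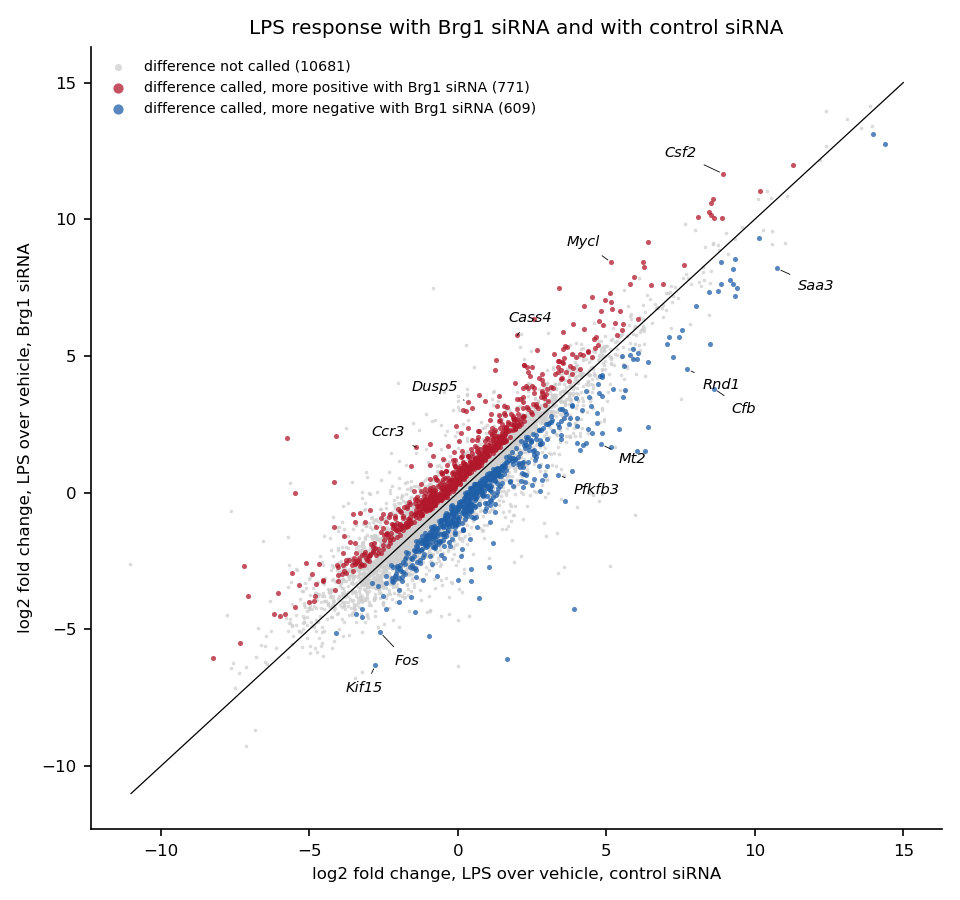
Log2 fold change of LPS over vehicle with Brg1 siRNA (y axis) against that with control siRNA (x axis) for the 12061 genes tested, 1 point per gene; the line marks equal responses, and red and blue points are the 771 and 609 genes whose difference was called. Most points lie along the line (r = 0.918 across genes), with Csf2, Mycl and Cass4 above it and Saa3, Rnd1, Cfb and Kif15 below it.

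Over all genes tested, 6.39% had a positive and 5.05% a negative called difference. With plain totals 567 of 12061 genes had a positive and 921 a negative one, so negative calls were more frequent there over all genes too. The list counts below stand beside these shares. Among the cytokines, 6 of 21 had a more positive and 2 a more negative response with Brg1 siRNA (6 and 3 with plain totals). Csf2 had 3314, 2842 and 3572 normalized counts in LPS with Brg1 siRNA and 655, 620.1 and 528 in LPS with control siRNA, with at most 1 read in any vehicle library (difference 2.72 on the log2 scale, SE 0.330, limma adjusted p = 2.33e-05). Tnf stood at 203916 ± 8333 (SD, n = 3) in LPS with Brg1 siRNA and 107695 ± 3415 with control siRNA, and in vehicle at 629.5 ± 12.9 with Brg1 siRNA and 555 ± 28.4 with control siRNA (difference 0.74, limma adjusted p = 6.99e-06). Il6 went the other way, with 9108, 7337 and 10314 in LPS with Brg1 siRNA and 15424, 16803 and 16039 with control siRNA, and 0 in all vehicle libraries. Its difference of -0.86 (limma adjusted p = 0.00359) is then set by the LPS levels and the added count, and it was called in 21 of 23 alternatives, as was that of Csf2. Of the 3 neutrophil chemokines, the response of Cxcl2 was more positive with Brg1 siRNA (difference 0.67, limma adjusted p = 0.00514). Those of Cxcl1 and Cxcl3 gave no called difference (-0.02 and -0.27, limma adjusted p = 0.987 and 0.709). In LPS, Cxcl1 averaged 32699 with Brg1 siRNA and 22433 with control siRNA, and Cxcl3 17312 and 28303, with no overlap in either gene. The vehicle groups of Cxcl3 held only 3 and 5 reads, which leaves its difference imprecise (SE 0.364). Il12b, with 4 and 5 vehicle reads, has the same limit. It averaged 29591 in LPS with Brg1 siRNA and 10952 with control siRNA, and its difference was not called (1.54, limma adjusted p = 0.112).

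Interferon-stimulated effectors and GTPases had negative called differences and 0 positive ones, while the interferon regulatory and STAT factors had 4 positive and 2 negative of 15. Of 37 effectors 9 had a called difference, and of 12 GTPases 4 (14 and 6 with plain totals). Rsad2 averaged 56427 ± 5182 in LPS with Brg1 siRNA and 46363 ± 569.8 in LPS with control siRNA, and in vehicle 4444 ± 258 with Brg1 siRNA and 1705 ± 231 with control siRNA (SD, n = 3 each; difference -1.11, limma adjusted p = 0.000465). Its levels were thus higher with Brg1 siRNA in both treatments, and the ratio between them was smaller. Ccl5, an interferon- and NF-κB-driven chemokine, averaged 42006 ± 1909 in LPS with Brg1 siRNA and 37449 ± 1539 in LPS with control siRNA, but 286 ± 16.5 in vehicle with Brg1 siRNA and 57.6 ± 5.96 in vehicle with control siRNA, a difference of -2.13 (limma adjusted p = 1.87e-08).

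NF-κB genes had 6 positive and 0 negative differences of 11 (4 and 1 with plain totals). Nfkbiz averaged 13633 ± 270.4 with Brg1 siRNA and 9809 ± 196 with control siRNA in LPS, and 129 ± 9.40 with Brg1 siRNA and 266 ± 34.2 with control siRNA in vehicle (SD, n = 3 each). Its larger response therefore came with a higher LPS level and a lower vehicle level. Glycolysis genes had 1 positive and 7 negative differences of 22 (1 and 10 with plain totals). Pfkfb3, which makes the activator of phosphofructokinase, had 914, 879.8 and 913 in LPS with Brg1 siRNA and 3501, 3361 and 3669.8 with control siRNA, with 622, 556 and 553 in vehicle with Brg1 siRNA and 321, 359 and 322 in vehicle with control siRNA (difference -2.75, SE 0.115, limma adjusted p = 5.86e-11). Hk2 and Pfkl showed smaller differences of the same sign (-1.09 and -1.38). Lysosomal genes had 7 positive and 0 negative differences of 28, but 3 and 2 with plain totals. For acute phase and metal genes the counts were 1 and 8 of 21 (1 and 9 with plain totals). Saa3 averaged 32913 ± 1374 in LPS with Brg1 siRNA and 73138 ± 5291 in LPS with control siRNA (difference -2.55). The LPS levels make up only part of that difference, and the rest lay in a higher vehicle level with Brg1 siRNA. Mt2 averaged 171 ± 10.9 in LPS with Brg1 siRNA and 1039 ± 163 in LPS with control siRNA (difference -3.04). Slc40a1 fell with both siRNAs and further with Brg1 siRNA (difference -1.19).

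The 8 largest positive differences among well-expressed genes were those of N4bp2l1, Sema6d, Cass4, E2f2, Mycl, Ccr3, Dusp5 and Clcf1. In Cass4, Mycl, Ccr3 and Dusp5 the vehicle level was lower with Brg1 siRNA. Cass4, an adhesion scaffold, had 675, 581 and 679.7 in LPS and 10.4, 14.9 and 8.53 in vehicle with Brg1 siRNA, and 359, 363 and 294 in LPS and 79.5, 85.3 and 86.5 in vehicle with control siRNA (difference 3.75, SE 0.220, limma adjusted p = 4.41e-09). Mycl, a MYC family factor, averaged 1441 ± 78.0 in LPS and 3.73 ± 2.90 in vehicle with Brg1 siRNA, and 1801 ± 127 in LPS and 49.7 ± 10.1 in vehicle with control siRNA (SD, n = 3 each). Its LPS level was thus the lower one with Brg1 siRNA, and its vehicle level lower by a larger ratio. Ccr3, the eotaxin receptor, was called higher in LPS with Brg1 siRNA, at 113, 122 and 132 in LPS and 42.3, 39.1 and 33.3 in vehicle, and lower with control siRNA, at 231, 209 and 220.3 in LPS and 552, 657 and 542 in vehicle. The phosphatase gene Dusp5 had 282, 274 and 252 in LPS and 36.7, 18.0 and 26.4 in vehicle with Brg1 siRNA, and 163, 127 and 112 in LPS and 115, 99.4 and 101 in vehicle with control siRNA. E2f2, a transcription factor of the E2F family, fell less with Brg1 siRNA than with control siRNA. It had 11.2, 18.7 and 59.1 in LPS and 302, 398 and 298 in vehicle with Brg1 siRNA. With control siRNA it had 1.13, 1.16 and 1.07 in LPS and 289, 263 and 290.1 in vehicle. Clcf1, a cytokine of the IL-6 family, had 1740.0 ± 159 in LPS with Brg1 siRNA and 728 ± 65.0 with control siRNA. The LPS levels make up only part of its difference of 2.76. The rest lay in the vehicle level, lower with Brg1 siRNA here too.

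The 8 largest negative differences were those of Cfb, Nup107, Ints1, Kif15, Rnd1, Hdc, Mt2 and Pfkfb3. Rnd1, a small GTPase, had 384, 361 and 399 in LPS and 16.7, 19.5 and 11.9 in vehicle with Brg1 siRNA, and 1692, 1562 and 2048 in LPS and 7.53, 8.29 and 6.12 in vehicle with control siRNA (difference -3.22, SE 0.219, limma adjusted p = 2.46e-08). Hdc, which makes histamine, averaged 321 ± 33.4 in LPS with Brg1 siRNA and 834 ± 74.6 with control siRNA. In vehicle Hdc averaged 6.69 ± 2.27 with Brg1 siRNA and 1.70 ± 1.48 with control siRNA, so both genes had a smaller ratio and a higher vehicle mean with Brg1 siRNA. Cfb, complement factor B, had 1547, 1728 and 1636 in LPS and 151, 100.1 and 103 in vehicle with Brg1 siRNA and 2204, 2253 and 2418 in LPS and 8.37, 19.9 and 0 in vehicle with control siRNA, where a vehicle library was listed at 0. Cfb shares 75.5% of its words with other genes of the annotation. Kif15, a spindle motor, was listed at 0 in LPS with Brg1 siRNA and had 18.0, 20.8 and 22.5 in LPS with control siRNA. Fos, described above, also fell further with Brg1 siRNA, with 442, 407 and 489.9 in LPS and 2725, 2664 and 2830.2 in vehicle with control siRNA (difference -2.48, limma adjusted p = 2.95e-06). The differences of Nup107 and Ints1 rested on libraries listed at 0 and were called under 9 and 11 of 23 alternative settings.

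**Figure D5:**
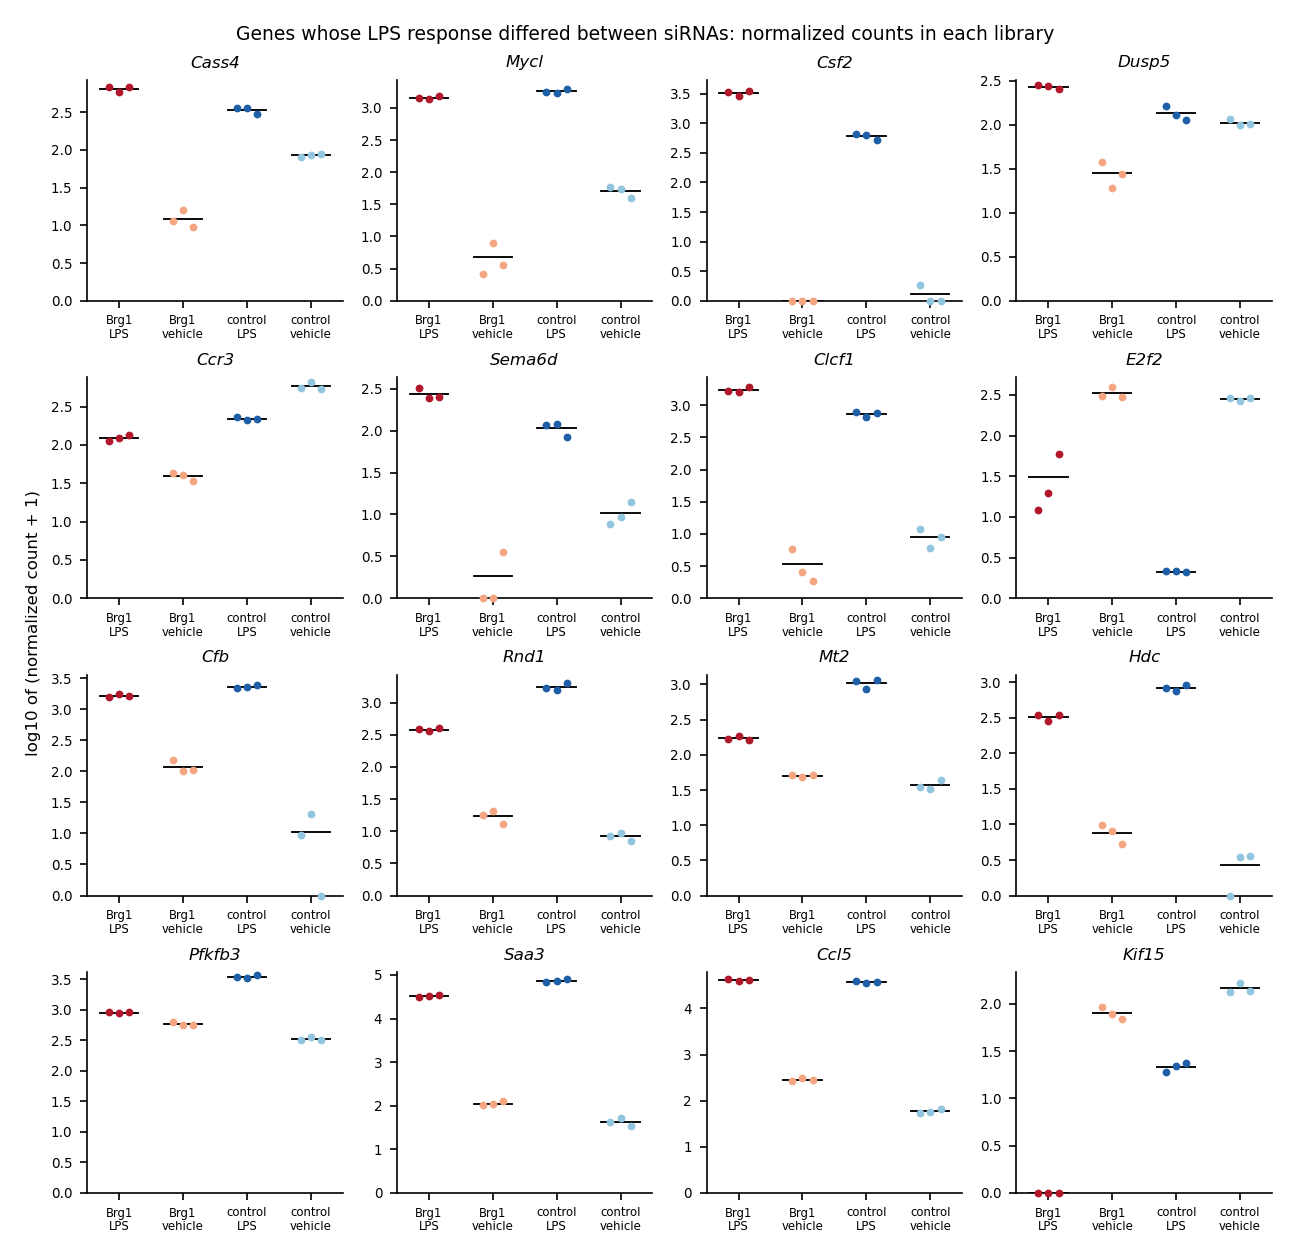
Normalized counts in each library, as log10 of the count + 1 (y axis, log scale), of 16 genes whose LPS response differed between siRNAs, with LPS left of vehicle for Brg1 siRNA (reds) and then for control siRNA (blues); points are libraries and bars the mean of 3. In Cass4, Mycl, Dusp5 and Ccr3 the Brg1 siRNA vehicle libraries lie below the control siRNA vehicle libraries, and in Rnd1, Mt2, Hdc, Pfkfb3 and Saa3 the Brg1 siRNA LPS libraries lie below the control siRNA LPS libraries.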

How the data were processed

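RNA sequencing libraries of 20 samples in 6 groups were summarised by the authors in 1 table of 17787 genes. The submitters' processing notes name Salmon 1.4.0, DESeq, DESeq2, R 4.1.0 and the builds mm10 and GRCm38.p6, with no role for each. The labels' protocols give 500 ng of RNA and a stranded mRNA kit. The per-gene signal values were deposited by the authors as counts normalized by DESeq, per the file headers. They are whole multiples of 1 step per library: 99.95% of the values above 0 came within 0.01 of a whole read and 100% within 0.06. Libraries held 13.69 to 18.71 M such reads, and ratios and floors from few reads cover counting error only. The log2 fold changes and their p-values in the authors' deposited table were used only for the counts credited to it.

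Values were tested as log2(normalized count + 1) with limma 3.58.1 (R 4.3.3), in 1 fit over all 20 libraries and 6 groups, with Benjamini-Hochberg adjustment over the 12061 genes and a threshold of 0.05. Fold changes understate the change of low genes on this scale. Library numbers in the table's headers fall into a lower and a higher series. The higher one holds Brg1 siRNA LPS replicate 2, control siRNA LPS replicate 3, replicate 4 of each group not compared here, and no vehicle library. The labels pair no samples, and deviations of same-numbered replicates from their group means correlated at 0.0787 at most. The main fit therefore has no replicate block. Alternatives were edgeR 4.0.16 and DESeq2 1.42.0 on the recovered reads, other pseudocounts, filters and scalings, a term for the number series, and each library left out, 23 in all.

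The genes named are the 12 largest rises and 12 largest falls with non-overlapping values and a mean of at least 100 in the higher group, up to 3 members of each list in either direction, 22 genes of prior interest, and the 8 largest differences between siRNAs each way. Isg15, Ifit1, Top2a and Pdgfrb were added after their values were seen. A few genes that the rule names are not reported here. The 29 role lists and 8 marker lists, and the comparison itself, were chosen with earlier results of these data known. Gene coordinates are from GENCODE M21 (GRCm38), and promoters from a RefSeq table (GRCm38.p6). The κB and ISRE motifs were shortened to their present letters after a search with longer forms. Sharing was measured as the share of a gene's 31-base words found in another gene's transcripts. The test was also run on simulated counts in which few genes changed, with rises and falls drawn alike. That run differs from these data and cannot bear on the choice of scaling.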

Additional observations from a re-analysis of the deposited data

Results flagged for a closer look

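The LPS response with Brg1 siRNA differed from that with control siRNA, by the limma test of the difference itself, in 63 of the genes named above, against 11.4% of all genes tested. Values are log2 differences, the response with Brg1 siRNA minus the response with control siRNA, and 26 were positive and 37 negative. Many of these genes were chosen for large changes or for this difference, so the count describes the choice of genes.

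Among sensing and regulatory genes the differences were 1.27 for Cd14, 1.51 for Nfkbiz, 0.83 for Socs3 and 0.35 for Irf1, and -0.51 for Ikbke, -1.03 for Ier3 and -2.48 for Fos. Cytokines and chemokines had 0.74 for Tnf, 2.72 for Csf2, 0.67 for Cxcl2 and 1.63 for Ccl22, and -0.86 for Il6 and -2.13 for Ccl5. Receptor genes had -1.60 for Fpr1 and -2.02 for Il6ra. Interferon-stimulated genes and GTPases had -1.11 for Rsad2, -0.65 for Oasl1, -0.54 for Isg15 and -0.77 for Gbp2.

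For mediator and inflammasome genes the values were 1.63 for Mefv and 0.41 for Nlrp3, and -0.81 for Acod1 and -0.99 for Pycard. Metabolic and sterol genes had -1.09 for Hk2, -1.38 for Pfkl, -0.58 for Gpi1, -2.75 for Pfkfb3, -0.88 for Idh1 and -0.41 for Scd2. Identity and antigen presentation genes had 0.41 for Csf1r, 0.65 for Mrc1 and 1.13 for Clec10a, and -1.11 for Marco, -0.63 for Fcgr2b, -0.88 for Cebpa, -0.42 for Cd40 and -0.56 for Cd274. Matrix, acute phase and antioxidant genes had 0.47 for Adam8, and -1.06 for Mmp14, -2.55 for Saa3, -1.19 for Slc40a1, -1.67 for Mt1, -3.04 for Mt2 and -0.31 for Gsr. Survival, stress and division genes had 1.01 for Ppp1r15a, 0.62 for Bcl2a1b, 0.71 for Bcl2a1d and 0.70 for Mki67.

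The largest positive differences were 4.53 for N4bp2l1, 4.05 for Sema6d, 3.75 for Cass4 and 3.29 for E2f2, followed by 3.25 for Mycl, 3.06 for Ccr3, 2.99 for Dusp5 and 2.76 for Clcf1. The largest negative ones were -4.82 for Cfb, -4.26 for Nup107, -3.93 for Ints1, -3.53 for Kif15, -3.22 for Rnd1 and -3.05 for Hdc. Shisa3 had -1.62, and like Il6 it had no read in vehicle with either siRNA, so its difference rests on the LPS levels. Of 62 genes with alternatives computed, 46 were called in all 23, and in 0 did the sign turn. The other 16 were Clec10a (called in 7), Nlrp3 and Cd40 (8), Scd2 and Nup107 (9), Ints1 (11), Ier3 (18), Adam8 (19), Oasl1 (20), Il6, Csf2, Fpr1, Bcl2a1d, Shisa3 and N4bp2l1 (21) and Csf1r (22). The largest adjusted p over the alternatives was 1.0 for Il6 and Shisa3 and 0.214 for Csf2, among limma, edgeR and DESeq2. With plain library totals Nlrp3, Csf1r, Clec10a and Adam8 were not called.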

How the results depend on the processing

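With plain library totals 2219 genes were higher and 7328 lower with Brg1 siRNA, 2434 and 6850 with control siRNA, and the difference between siRNAs was positive for 567 and negative for 921. In that setting the log2 fold change with Brg1 siRNA became -0.13 for Il10, -0.47 for Irf7 and -0.03 for Pfkfb3. Each value is then taken relative to a total that the induced genes raise, and 21 of the 38 list counts that moved by over 1.5 times, of 986 compared, moved there. For Ints1 the value was 0.16 without Brg1 siRNA LPS replicate 1 and -0.65 without replicate 2. The cause was not tested.

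In the other alternatives the counts with Brg1 siRNA stayed at 4016 to 4461 higher and 3851 to 4921 lower, and with control siRNA at 4055 to 4539 and 3826 to 4825. The difference between siRNAs was positive for 699 to 1072 genes and negative for 549 to 848. With 1 library left out the ranges were 4102 to 4207 and 4247 to 4323 with Brg1 siRNA, 4119 to 4185 and 4220 to 4267 with control siRNA, and 578 to 744 and 453 to 580 for the difference. A replicate block gave 4350 higher and 4549 lower with Brg1 siRNA, 4424 and 4508 with control siRNA, and 856 and 684 for the difference. The labels pair no samples. Deviations of same-numbered LPS and vehicle libraries from their group means correlated at -0.0163, 0.00857 and -0.00373 with Brg1 siRNA. With control siRNA they correlated at 0.00999, 0.0787 and 0.0412. The own number was the best match for control siRNA replicates 2 and 3 only. These values cannot settle whether the samples are paired. Of 148 named genes, 139 kept direction and call in every alternative, and of the 16 genes named for their difference 13 did, the exceptions being N4bp2l1, Nup107 and Ints1. Irf7 was called with the compared samples alone (adjusted p = 0.00209 from limma). Low counts limit what can be said of genes listed at 0.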
